A study of Mus musculus with 6 samples.

Results

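The myosin light and heavy chain isoforms were followed in whole mouse hearts, as 10 genes: the essential light chains Myl1, Myl3 and Myl4, the regulatory light chains Myl2, Myl7, Myl9 and Mylpf, and the heavy chains Myh3, Myh6 and Myh7. They were 10 of the 18193 genes that at least 1 probe set of the array names alone, and they own 14 of 34945 such probe sets. The genes were chosen by name with log2 differences of these hearts in view. These were differences between genotypes and between the letters eM and eI below. Both contrasts are therefore given for the 10 genes as descriptions, without a p-value for any single gene. Counts of calls among them are given beside those over all tested probe sets, and are no independent evidence. Each heart was a C57B6 mouse heart on 1 Affymetrix Mouse430_2 array: 3 were labelled wild type and 3 EphB4 Mutant. The descriptions of hearts 1 and 2 of each genotype begin with eI, and those of heart 3 of each genotype with eM. The sources used here do not explain the letters, and they give neither the mice's age nor how EphB4 was mutated. All values are normalized log2 intensities, so a step of 1 is a doubling. Precision was limited by the number of arrays, 3 per genotype and 2 of eM, and the p-values below measure the spread between these hearts.

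A myosin motor of striated muscle pairs heavy chains, which split ATP and pull on actin, with an essential and a regulatory light chain that stiffen and tune the lever arm. In the mouse heart the heavy chains are Myh6, the fast alpha form of atria and adult ventricles, and Myh7, the slow beta form of fetal ventricles. Myl2 and Myl3 are the light chains of ventricles, and Myl7 and Myl4 those of atria and the early heart tube. Myl1, Mylpf and Myh3 are best known from skeletal muscle, and Myl9 from smooth muscle and non-muscle cells.

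Because Myh6 and Mylpf moved with the letters while Myh7 did not, and Myl7 and Myl1 had the next largest differences between the letters among the brightest probe sets, the 250 bases before their RefSeq start sites (GRCm38.p6) are shown. All 10 genes matched the promoter table, with 12 start sites in all. Sequences run 5′ to 3′ on the gene's strand, in lower case. Capitals mark matches to the motifs searched: the sites of GATA factors (reading AGATAA or AGATAG, or else TGATAA or TGATAG), the E-boxes CAGCTG and CAGGTG, the M-CAT element CATTCC of TEAD factors, the T-box site GGTGTG, the MEF2 site and the CArG box of SRF, on both strands, and TATAAA on the gene's strand. For Myh7 the first of its 2 listed start sites is shown.
Myh6, chr14:54966608-54966857, minus strand: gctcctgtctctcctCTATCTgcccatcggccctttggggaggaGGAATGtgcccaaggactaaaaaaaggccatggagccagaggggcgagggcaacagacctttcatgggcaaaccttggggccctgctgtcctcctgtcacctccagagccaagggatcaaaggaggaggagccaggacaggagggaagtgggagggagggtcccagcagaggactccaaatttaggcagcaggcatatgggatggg
Myh7, chr14:54994627-54994876, minus strand: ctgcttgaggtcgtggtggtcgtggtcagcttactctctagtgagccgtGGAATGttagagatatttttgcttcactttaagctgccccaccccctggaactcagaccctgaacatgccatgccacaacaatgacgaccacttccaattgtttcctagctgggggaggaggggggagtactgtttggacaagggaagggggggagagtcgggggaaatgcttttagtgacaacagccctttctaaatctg
Mylpf, chr7:127211358-127211607, plus strand: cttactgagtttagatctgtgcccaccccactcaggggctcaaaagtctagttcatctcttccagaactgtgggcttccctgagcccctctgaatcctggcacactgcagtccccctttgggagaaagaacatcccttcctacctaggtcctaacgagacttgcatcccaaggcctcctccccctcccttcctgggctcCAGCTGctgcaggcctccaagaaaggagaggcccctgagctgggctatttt
Myl7, chr11:5898783-5899032, minus strand: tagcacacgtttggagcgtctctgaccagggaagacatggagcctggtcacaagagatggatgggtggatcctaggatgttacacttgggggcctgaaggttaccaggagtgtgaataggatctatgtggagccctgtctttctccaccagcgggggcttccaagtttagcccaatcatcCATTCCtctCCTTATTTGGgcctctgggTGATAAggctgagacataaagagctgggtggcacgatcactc
Myl1, chr1:66945057-66945306, minus strand: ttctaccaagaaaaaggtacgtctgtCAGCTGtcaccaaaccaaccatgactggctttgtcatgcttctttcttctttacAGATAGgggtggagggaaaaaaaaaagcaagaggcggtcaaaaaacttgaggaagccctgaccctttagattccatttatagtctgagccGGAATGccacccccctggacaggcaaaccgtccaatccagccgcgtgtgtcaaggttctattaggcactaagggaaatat
The M-CAT element lay at -206 to -201 for Myh6, at -201 to -196 for Myh7, at -70 to -65 for Myl7 and at -80 to -75 for Myl1, counted back from the start site. It was held by 5 of the 12 member windows, the fifth gene being Myl3, and by 12.6% of all 32851 windows of this length. A GATA match was found in 4 of the 12 (Myl1, Myl2, Myl7 and Myh6), against 26.5% of all windows, and a CArG box in 3 (Myl9, Myl3 and Myl7), against 1.47%. The E-box CAGCTG was present in Myl1, Myl2 and Mylpf (13% of all windows), and CAGGTG in Myl3 and in the second window of Myh7 (17.2%). Myh3 alone had TATAAA, at -29 to -24 (7.59% of all windows). The MEF2 site and the T-box site were in 0 of the 12 windows, against 1.69% and 16.3% of all.

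Myh6 and Myh7 lie next to each other in the same orientation on chromosome 14, with the microRNA gene Mir208a inside Myh6, Mir208b inside Myh7, and the long non-coding RNA Mhrt listed between their starts. The mature microRNAs were not measured by this array. They are shown because each is made from a member's transcript, and they share the seed UAAGACG, bases 2 to 8, in capitals (RefSeq, GRCm38.p6).
mmu-miR-208a-3p, inside Myh6, chr14:54949072-54949093, minus strand: aUAAGACGagcaaaaagcuugu
mmu-miR-208b-3p, inside Myh7, chr14:54975710-54975731, minus strand: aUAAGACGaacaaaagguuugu

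Some properties of the hearts bear on every value below. Ephb4, the mutated receptor gene, read 7.83 to 8.20 in wild-type and 7.93 to 8.14 in mutant hearts. Measures of RNA quality differed between eM and eI. Beta-actin control probes near the 3-prime end exceeded those near the 5-prime end, a gap that grows as RNA degrades, by 0.51 (wild-type 3) and 0.77 (mutant 3) in eM and by 0.28 to 0.41 in eI. A ribosomal RNA control read 11.17 and 10.48 in eM against 9.80 to 10.16 in eI. Xist, which marks female hearts, was at 6.73 and 6.78 in mutants 1 and 3 and at 11.51 to 12.33 in the other four hearts, so sex was partly tied to genotype. The part of RNA quality and of sex in the results was not tested. Heart muscle markers were strong in all hearts: the mean of the 9 markers, among them Tnnt2, Actc1 and Ryr2, ran from 13.06 to 13.27. In RNA of whole hearts, fewer cells of a type and less RNA per cell cannot be told apart.

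Of the 10 genes, 9 had a probe set above the filter on dim signals (a mean over the 6 hearts above 5.38), and 12 of the 14 probe sets passed it. Several of the bright ones sat close to the highest value on any array, 14.79: the mean over all hearts was 0.12 below it for Myl2, 0.26 for Myh7, 0.29 for Myl3, 0.48 for Myl7 and 0.61 for Myl4. Whether these values were compressed at the top of the scale was not tested. Between the hearts they moved little, with standard deviations over all 6 of 0.05 for Myh7, 0.06 for Myl2 and Myl4, 0.09 for Myl3 and 0.15 for Myl7. Those of Myl1, Mylpf and Myh6 were 0.56, 0.42 and 0.35.

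**Figure D1:**
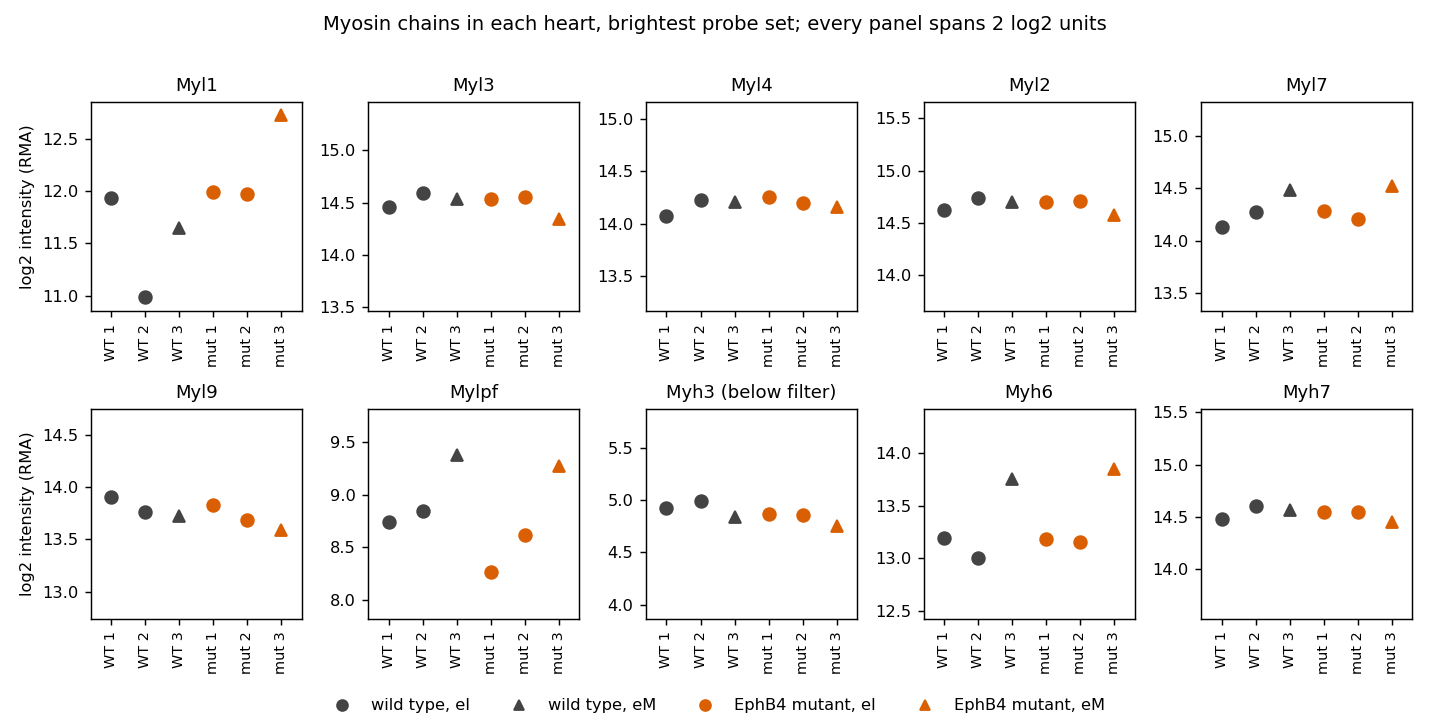
Log2 intensity of each myosin gene in each of the 6 hearts at its brightest probe set, 1 panel per gene and every panel spanning 2 log2 units; grey is wild type, orange EphB4 mutant, circles eI and triangles eM. Myh6 and Mylpf stand higher in both eM hearts than in any eI heart, Myl1 is scattered between 10.99 and 12.72, and Myh7, Myl2, Myl3 and Myl4 are nearly level.

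Among the heavy chains, Myh6 separated the eM from the eI hearts. Its bright probe set read 13.19, 13.00 and 13.76 in wild-type hearts 1 to 3, and 13.18, 13.16 and 13.85 in mutant hearts 1 to 3. Both eM hearts lay above all eI hearts, whose SD was 0.09 (n = 4), as was so at 22.8% of all tested probe sets. The difference of the means was 0.67 ± 0.10 (SE, limma with genotype as covariate), or 1.59-fold. It was 0.66 within the wild-type and 0.68 within the mutant hearts. A second Myh6 probe set was dim and left out of the tests. It read 3.25, 3.85 and 4.50 in wild-type and 3.66, 3.44 and 5.10 in mutant hearts, again highest in both eM hearts.

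Myh7 did not follow it. Its probe set read 14.48, 14.60 and 14.56 in wild-type and 14.55, 14.55 and 14.46 in mutant hearts, so eM and eI overlapped. The difference was -0.04 ± 0.09, with a 95% interval of -0.26 to 0.18. A pair of probe sets that match both Myh6 and Myh7 belong to neither gene alone. One of them read 14.38, 14.32 and 14.45 in wild-type and 14.25, 14.26 and 14.40 in mutant hearts, and differed by 0.12 ± 0.08 between the letters. The other read 6.75, 6.87 and 7.60 and 6.86, 6.83 and 7.60, and differed by 0.77 ± 0.09. Since such closely related transcripts can share a probe set, the Myh6 and Myh7 values may not be wholly separate.

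The balance of Myh6 to Myh7 was taken as the log2 difference of the bright probe sets within each heart. Only its shift between hearts has meaning, since probe sets differ in brightness. It was -1.29, -1.60 and -0.81 in wild-type and -1.36, -1.39 and -0.61 in mutant hearts. Both eM hearts were shifted toward Myh6, by 0.70 against the mean of the eI hearts (SD of eI 0.13, n = 4), without overlap. How often other gene pairs do so was not computed. As Myh7 varied little (SD 0.05) near the top of the scale, this shift largely restates the Myh6 difference of 0.67. Between genotypes the shift was 0.11, less than the SDs of 0.40 (wild type, n = 3) and 0.44 (mutant, n = 3), and it was 0.07 within eI and 0.20 within eM.

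Myh3, the embryonic heavy chain of skeletal muscle, had 1 probe set below the filter. It read 4.92, 4.99 and 4.84 in wild-type and 4.87, 4.86 and 4.75 in mutant hearts. The eM hearts were the lowest, by 0.12 within each genotype, at a level where signal and background are hard to separate. Fit statistics were not computed for it.

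Of the regulatory light chains, Myl7 and Mylpf were set apart by letters, and Myl2 and Myl9 were not. Myl7, the atrial form, read 14.13, 14.28 and 14.48 in wild-type and 14.29, 14.20 and 14.52 in mutant hearts. Both eM hearts were above all eI hearts, as at 22.8% of all tested probe sets. The difference was 0.28 ± 0.09 (1.21-fold), alike within wild-type (0.28) and mutant hearts (0.28). Myl2, the ventricular form, read 14.63, 14.74 and 14.70 in wild-type and 14.70, 14.71 and 14.58 in mutant hearts, which overlapped by letters. Its difference was -0.06 ± 0.09, with a 95% interval of -0.28 to 0.17, and turned to 0.01 under quantile normalization. Within hearts, Myl7 was shifted against Myl2 by 0.33 in eM (SD of eI 0.04, n = 4), with no overlap, and by 0.07 between genotypes. Myl2 varied little near the top of the scale, so the shift in eM largely restates the Myl7 difference.

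Mylpf, the regulatory chain of fast skeletal fibres, read 8.75, 8.84 and 9.38 in wild-type and 8.26, 8.61 and 9.27 in mutant hearts. The eM hearts were again highest, as at 22.8% of all tested probe sets. The difference was 0.71 ± 0.13 or 1.63-fold, with 0.58 within wild-type and 0.83 within mutant hearts. The genotypes overlapped, and mutant 1 was the lowest heart. Against Myl2 within hearts, Mylpf was shifted by 0.77 in eM, without overlap, which largely restates the Mylpf difference. Myl9, the smooth muscle and non-muscle form, read 13.90, 13.76 and 13.72 in wild-type and 13.83, 13.68 and 13.59 in mutant hearts. Its eM hearts were not set apart, since mutant 2 was below wild-type 3, and the difference was -0.14 ± 0.10.

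Of the essential light chains, Myl1 varied most from heart to heart. This chain of fast skeletal muscle read 11.93, 10.99 and 11.65 in wild-type and 11.99, 11.97 and 12.72 in mutant hearts. All mutant hearts lay above all wild-type hearts, but mutants 1 and 2 only just above wild-type 1, while wild-type 2 was lowest and mutant 3 highest. The difference was 0.71 ± 0.30 (SE), or 1.63-fold, with a 95% interval of -0.02 to 1.43. Leaving out single hearts moved it from 0.44 to 0.91. By letters the hearts overlapped, with a difference of 0.46 ± 0.27 that was 0.19 within wild-type and 0.74 within mutant hearts.

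Myl3, the ventricular essential chain, had 3 probe sets. The brightest read 14.46, 14.59 and 14.54 in wild-type and 14.53, 14.55 and 14.34 in mutant hearts, with mutant 3 the lowest. The other two gave the same order for mutant 3, at 13.87 and 13.60 against 14.14 to 14.18 and 13.86 to 14.02 in the other hearts. Differences between letters were -0.10, -0.17 and -0.19 for the 3 probe sets, and the first was 0.01 without mutant 3. Myl4, the atrial and embryonic essential chain, read 14.08, 14.23 and 14.21 in wild-type and 14.25, 14.20 and 14.16 in mutant hearts, and its letters overlapped (-0.01 ± 0.09). A second, dimmer Myl4 probe set read 7.93, 7.62 and 7.81 in wild-type and 7.56, 7.55 and 7.56 in mutant hearts. It put all mutant hearts below the wild-type ones, by 0.23 on average, whereas the bright one gave 0.03 with overlap. The probe sets of Myl4 therefore disagreed on genotype. Within hearts, Myl1 was shifted against Myl3 by 0.76 between genotypes (SD 0.55 in wild type, n = 3, and 0.54 in mutant, n = 3), and the genotypes overlapped on this measure. Myl4 was shifted against Myl3 by 0.09 between genotypes and by 0.09 between letters.

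**Figure D2:**
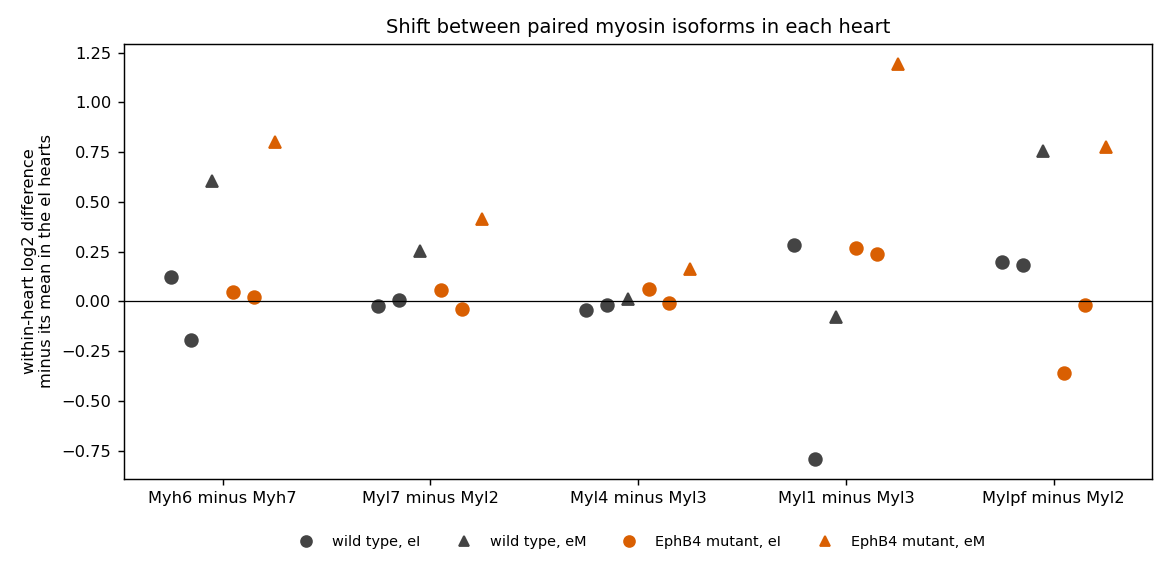
Log2 difference between paired isoforms within each heart (y axis), drawn relative to its mean in the eI hearts; symbols and colours are as in the plot of the myosin genes by heart. Both eM hearts are shifted toward Myh6 over Myh7, Myl7 over Myl2 and Mylpf over Myl2, whereas Myl1 over Myl3 is high in mutant 3 and low in wild-type 2.

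Between genotypes, limma called 0 of the 12 member probe sets at an adjusted p of 0.05 (Benjamini-Hochberg over all tested probe sets), where it called 0 of 27022 in all (percent called 0). At an unadjusted p under 0.05 there were 0 of the 12, and 316 in all (1.17%). Differences were above 0 for 4 and below 0 for 8 of the 12, with a median of -0.04 beside 0.01 over all tested probe sets. The genotypes did not overlap at 2 of the 12, Myl1 and the dim Myl4 probe set, against 4.67% of all. For the heavy chains the difference of mutant minus wild type was 0.08 ± 0.26 (SE) for Myh6 and -0.03 ± 0.09 for Myh7. For the regulatory chains it was -0.03 ± 0.09 for Myl2, 0.04 ± 0.14 for Myl7, -0.10 ± 0.11 for Myl9 and -0.27 ± 0.29 for Mylpf. For Myl3 and Myl4 it was -0.06 ± 0.10 and 0.03 ± 0.09 at the brightest probe set. The intervals of Myl2 (-0.25 to 0.20) and Myh7 (-0.25 to 0.19) were narrow, those of Myh6 (-0.55 to 0.71) and Mylpf (-0.97 to 0.42) wide. Myl2 and Myh7 lay on average 0.12 and 0.26 below the highest value on any array, and compression there was not tested. The fit had no term for the letters, so a split between eM and eI counts as spread in it. On simulated arrays with the spread of this comparison, 70.1% of probe sets changed by 1 log2 unit and 8% of those changed 1.5-fold were recovered. The simulated hearts varied independently, while the real ones share the eM and eI split, so the rates may differ here. All members' differences were below 1 log2 unit.

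By letters, the same fit with genotype as covariate called 2 of the 12 member probe sets, Myh6 and Mylpf, both higher in eM. In all it called 11.7% of all 27022 tested probe sets, 1825 higher (6.75%) and 1335 lower (4.94%), and since these differences were known when the genes were chosen, nothing is read from the members' share. Letters did not overlap at 4 of the 12 (Myh6, Mylpf, Myl7 and 1 Myl3 probe set), against 43.1% of all, 22.8% with eM higher and 20.3% with eM lower. The members' median difference was -0.02, beside -0.01 over all tested probe sets. The calls rested on few hearts: without mutant 3 limma called 1 probe set in all and none of the members. Without wild-type 3, mutant 1 or mutant 2 it called 1146, 1248 and 904 in all, and 0, 1 (Myh6) and 0 of the members. The differences themselves stayed between 0.63 and 0.71 for Myh6 and between 0.58 and 0.83 for Mylpf when single hearts were left out. Without wild-type 1, Myl1 was called as well, at 0.71.

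**Figure D3:**
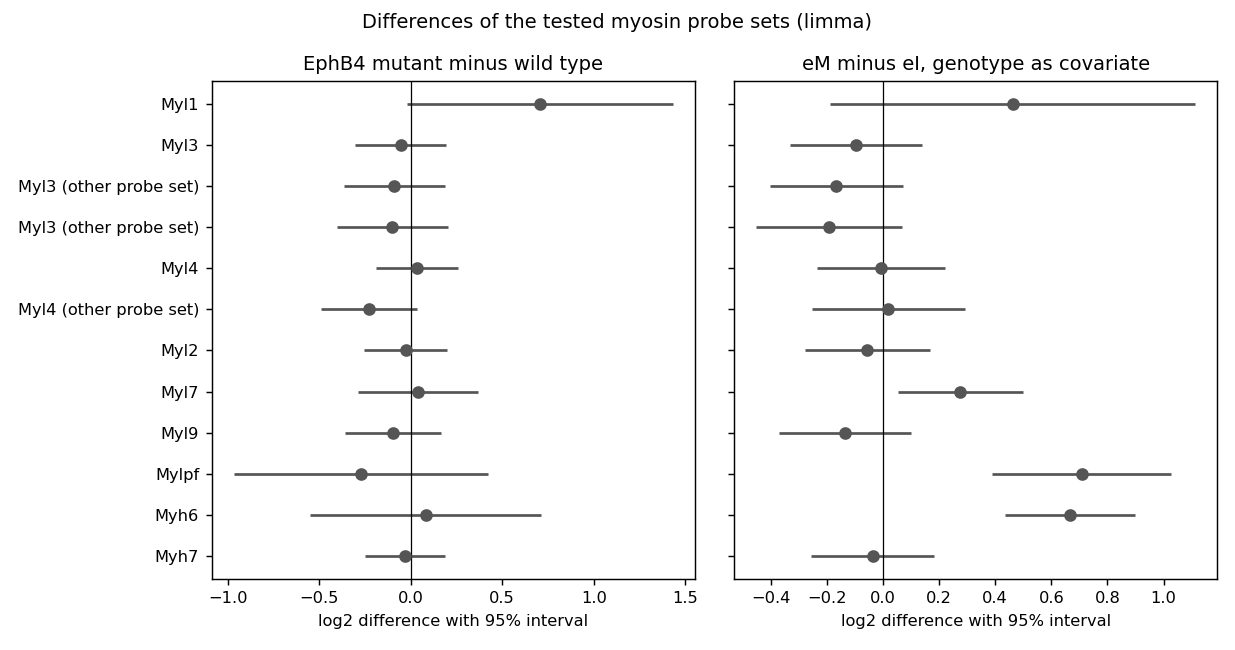
Log2 differences of the 12 tested myosin probe sets with 95% confidence intervals from limma, mutant minus wild type on the left and eM minus eI on the right, on separate scales. By genotype all intervals include 0, and by letters Myh6 and Mylpf stand at 0.67 and 0.71.

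Whether the mutant effect differed between eM and eI was a contrast that the choice of genes did not name. It is computed from the same values of the same hearts as the differences in view then. Its results for the members are therefore no independent evidence. Limma's interaction term called 0 of the 12 member probe sets (smallest adjusted p = 0.923) and 0 of 27022 in all (percent called 0). At an unadjusted p under 0.05 there were 0 of the 12, and 1438 in all (5.32%). The estimate, eM minus eI, was 0.55 ± 0.57 (SE) for Myl1, 0.25 ± 0.26 for Mylpf and 0.01 ± 0.19 for Myh6. It was -0.21 ± 0.17 for Myl3 and -0.15 ± 0.17 for Myl2, and 9 of the 12 estimates were below 0. With 1 heart per genotype in eM the term was weak: on simulated arrays it recovered 0.7% of probe sets that differed by 1 log2 unit and 79.8% of those that differed by 2.

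Over the 6 hearts the members fell into patterns, given here as descriptions over arrays that share the split into eM and eI. Myl2, Myl3 and Myh7 ran together, with Pearson r of 0.98 for Myl2 with Myl3, 0.98 for Myl2 with Myh7 and 0.95 for Myl3 with Myh7, over ranges of at most 0.25 log2. Myh6 ran with Myl7 (r = 0.88) and Mylpf (r = 0.79). Myl1 ran against Myh7 (r = -0.88), Myl3 (r = -0.86) and Myl2 (r = -0.83). Among all 13572 genes tested at their brightest probe set, those most like Myh6 were Mapk8ip3, Nr2c2 and Slitrk5 (r from 0.9964 to 0.9995). Those most like Mylpf were Slc30a4, Jak1 and Pomk (r from 0.9825 to 0.9975). Picking the highest r of so many genes over only 6 hearts favours values near 1, so these matches show no link. Some of these genes hardly moved, with ranges of 0.11 log2 for Slc30a4 and 0.13 for Nr2c2. Myl7 was closest to Ift27, Rps27l and Mki67, and Myh7 to Med9, Actn2 and Slitrk4. Actn2 encodes the actinin that anchors thin filaments at the Z-disc. Myl1 was closest to Cep85, 4933404O12Rik and L1td1, each low in wild-type 2 and high in mutant 3.

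Genes that work with the myosins were compared in the same fits at their brightest probe set. Over all genes tested that way, 9.99% were called by letters, 4.3% higher and 5.7% lower in eM, with a median difference of -0.03, and 0 of 13572 were called between genotypes (percent called 0). These lists, too, were drawn up with results of these data known, so their calls by letters are no independent evidence of a direction. The share of all genes with a difference above 0 was not computed, so counts above or below 0 have no background beside them. None of the 12 lists below had a gene called between genotypes. Their median differences of mutant minus wild type lay between -0.06 and 0.14.

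Other myosins were not called by letters. Of 7 further sarcomeric heavy chains, 5 had a probe set of their own and 2 passed the filter, Myh2 (0.01 ± 0.10, SE) and Myh7b (-0.11 ± 0.08). Of the non-muscle and smooth muscle heavy chains, 0 of 4 were called. Myh9, a heavy chain of non-muscle cells, read 11.13 to 11.17 in eI and 11.46 and 11.48 in eM, a difference of 0.32 ± 0.08 (limma adjusted p = 0.0603). Myh10, its relative in embryonic heart, differed by 0.05 and Myh11, the smooth muscle heavy chain, by 0.01. Among 4 tested further light chains, 0 were called, with Myl6, the essential chain of non-muscle myosin, at -0.53 ± 0.15 (limma adjusted p = 0.0691).

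Among the enzymes that add and remove phosphate on the regulatory chains, none was called. Of 7 tested genes, 0 were called by letters, with a list median of 0.17. Mylk3, the cardiac light chain kinase, read 11.18, 11.18 and 11.20 in wild-type and 11.07, 11.09 and 11.17 in mutant hearts. Mylk, the smooth muscle kinase, read 8.26, 8.12 and 8.11 and 8.66, 8.50 and 8.02, with both eM hearts the lowest (-0.32 ± 0.14). Ppp1r12a, which targets the phosphatase to myosin, differed by 0.21 ± 0.11 and Rock1, a kinase that inhibits it, by 0.18 ± 0.10.

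Of 8 tested thick filament partners and myosin chaperones, 7 were above 0 by letters (median 0.22) and 0 were called. Smyd1 and Unc45b, which help myosin fold and assemble, differed by 0.38 ± 0.12 and 0.37 ± 0.10 (limma adjusted p = 0.101 and 0.0634). Both were higher in both eM hearts than in any eI heart, as were 22.8% of all tested probe sets. Mybpc3, the cardiac myosin-binding protein C, differed by 0.14 ± 0.10, Myom1 of the M-band by 0.11 ± 0.09, and Mybpc2, the fast skeletal form, by -0.58 ± 0.19 (adjusted p = 0.111).

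All 15 tested transcription factors known to act on myosin genes were above 0 by letters (median 0.17), and 4 were called higher, 0 lower. Several lay close to 0, among them Gata6 (0.002 ± 0.09), Hand2 (0.02 ± 0.09) and Hey2 (0.07 ± 0.21). Myocd, a cofactor of SRF, rose by 1.13 ± 0.16 (SE, limma adjusted p = 0.0109), from 8.44 to 8.93 in eI to 9.87 in both eM hearts. Gata4 rose by 0.57 ± 0.13 (adjusted p = 0.0401), Tbx5, a T-box factor of atria and the left ventricle, by 0.50 ± 0.10 (adjusted p = 0.0289), and Tead1, which binds M-CAT elements, by 0.43 ± 0.10 (adjusted p = 0.0461). Differences were 0.24 ± 0.09 for Mef2c, 0.15 ± 0.10 for Srf and 0.04 ± 0.12 for Nkx2-5, none of them called. All 4 calls were lost without mutant 3, where the differences were 1.09, 0.36, 0.37 and 0.29. Without wild-type 3 they were lost too, at larger differences of 1.18, 0.77, 0.63 and 0.58. Without mutant 1 or mutant 2, Myocd alone of the 4 was called. Gata4 and Tead1 were also lost without the filter (adjusted p = 0.0563 and 0.0711), and Tead1 without wild-type 2 and under quantile normalization and median centring.

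Marker lists of other tissues are given beside the members. Of 13 skeletal muscle markers, 7 passed the filter, and their mean over all 13 genes was 5.71 in both eM hearts and 5.76 to 5.93 in eI hearts. The skeletal muscle regulators were dim: Myf5 averaged 2.86, Myf6 3.98, Pax7 4.50, Myog 4.90, Pax3 5.28 and Myod1 5.38 over the 6 hearts. Several other markers of the list were brighter: Tnni2 averaged 10.11, Ckm 7.85, Chrng 7.20, Actn3 6.84 and Tnnt3 6.81. Tnnc2 averaged 5.47 and Chrna1 4.53. While Mylpf was higher in eM, the skeletal creatine kinase Ckm fell by 1.18 (SE 0.20, limma adjusted p = 0.0185) and the fast troponin Tnni2 by 0.59 (SE 0.14, adjusted p = 0.0474), and the fast actinin Actn3 rose by 0.72 ± 0.12 (adjusted p = 0.0169). Without mutant 3 all 3 calls were lost, at -0.79 for Ckm, -0.30 for Tnni2 and 0.63 for Actn3, and all 3 were lost without mutant 2. Those of Tnni2 and Actn3 were lost without mutant 1 as well, Actn3 without wild-type 3, and Tnni2 without wild-type 2, the filter or the genotype covariate and under median centring.

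While Myl7 was higher in eM, most other atrial markers had differences below 0. This held for 8 of the 9 tested, with a list median of -0.31 and list means of 7.83 and 8.03 in eM against 8.20 to 8.52 in eI hearts. One was called: Sln, the sarcolipin of atrial calcium handling, fell by 1.30 (SE 0.27, limma adjusted p = 0.0337; 4.65 and 5.08 in eM, 5.71 to 6.76 in eI). Nppa, the atrial natriuretic peptide, differed by -0.25 ± 0.09 and Nr2f1, a nuclear receptor of atrial identity, by -0.78 ± 0.22, neither called. Of 7 tested ventricular markers, Mpped2 rose by 0.695 ± 0.101 (adjusted p = 0.0126), and the list median was 0.07. Pln, the regulator of the calcium pump, and the gap junction gene Gja1 fell by 0.75 (SE 0.17, adjusted p = 0.0439) and 0.55 (SE 0.11, adjusted p = 0.0279). Without mutant 3 the calls of Sln, Mpped2, Pln and Gja1 were lost, at -0.72, 0.68, -0.37 and -0.39, and all 4 were lost without mutant 2. Without mutant 1 those of Sln, Pln and Gja1 were lost, without wild-type 3 those of Mpped2 and Gja1, and without the filter that of Pln.

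Smooth muscle markers had a higher mean in both eM hearts than in any eI heart, whereas Myl9 did not. Of 8 tested, 7 were above 0 (median 0.42), with list means of 10.11 and 10.28 in eM against 9.59 to 9.81 in eI, and 3 were called higher. Tagln rose by 1.19 ± 0.16 (limma adjusted p = 0.00990), Myocd as given with the transcription factors, and the intermediate filament gene Des by 0.45 ± 0.10 (adjusted p = 0.0381). Myh11 and Cnn1 differed by 0.01 and -0.04. Second heart field and outflow markers had 0 of 5 called (median 0.26); Isl1 read 7.61 in wild-type 3 and 4.96 to 5.67 in the other hearts. Of the 9 heart muscle markers, the long transcripts Ttn and Ryr2 rose by 1.64 ± 0.11 and 0.76 ± 0.09 (adjusted p = 0.00254 and 0.00736) and Pln fell, while Tnnt2, Tnni3, Tnni1, Actc1 and Actn2 differed by -0.19 to 0.05. Without mutant 3 the calls of Ttn, Ryr2, Tagln and Des were lost, at 1.62, 0.80, 0.90 and 0.33. Ryr2 and Des were also lost without wild-type 3, and Des without mutant 1 or 2, the filter, or under median centring. The part of these cell types in the myosin values was not tested.

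**Figure D4:**
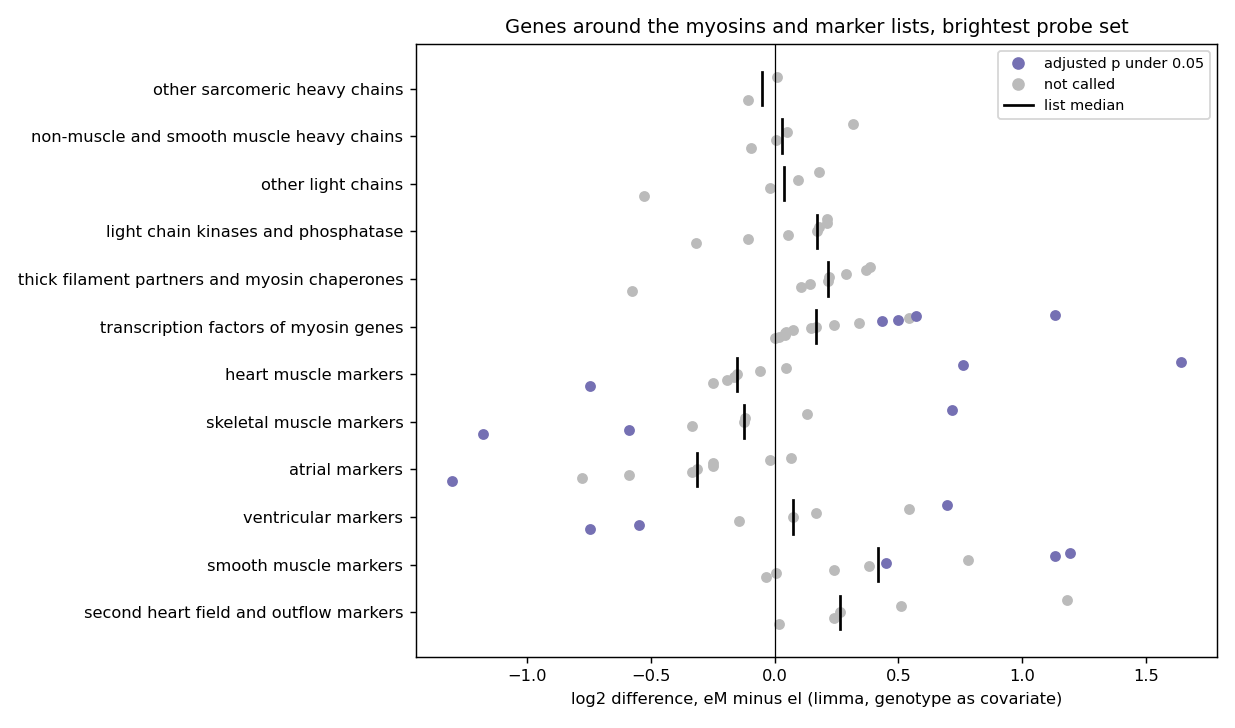
Log2 difference of eM minus eI (limma, genotype as covariate) for each tested gene of the myosin-related and marker lists, 1 point per gene at its brightest probe set; purple points have an adjusted p under 0.05 and black bars are list medians. All 15 transcription factors lie above 0, several of them by less than their SE, and 8 of 9 atrial markers lie below 0.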

How the data were processed

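RNA of 6 mouse hearts was read on 1 Affymetrix Mouse430_2 array each. The authors deposited log2 intensities; RMA, a robust average over the probes of a set, is named in the submitters' processing notes, without version. No scanner files were used, so background correction could not be varied. Of 45101 probe sets, 64 controls were left out, and of the other 45037 the 40% with the lowest mean, which left 27022. Genes were named from the platform annotation, 34945 probe sets naming 1 gene; probe sets naming several were kept out of single genes. The brightest probe set stands for a gene where 1 value is given. RefSeq tables (GRCm38.p6) gave promoters, microRNAs and neighbours.

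Comparisons used limma 3.58.1 in R 4.3.3 (lmFit, eBayes, two-sided, Benjamini-Hochberg, 0.05) across all tested probe sets, with no covariate for genotype and genotype as covariate for the letters. The fits were tested on simulated data with 27022 probe sets. Figures used matplotlib 3.10.9 in Python 3.11.15. The members and lists were chosen with earlier results of these data known. All 10 members are named, with up to 4 genes of smallest p per list and comparison; from that set, those with a known role beside the myosins are given. Srf, Tnnt2, Tnni1, Myf5, Myf6, Pax7, Pax3, Myog, Myod1 and Chrna1 were named in addition, after their values were seen. The shared replicate numbers come from the titles. Deviations of same-numbered hearts from their group means had correlations of 0.18, 0.36 and 0.74, all above 0.1, and a replicate block was run as an alternative. Hearts 1 and 2 of opposite genotype but unlike number, all eI, correlated more strongly than their own pairs (0.49 and 0.47). The pair at 0.74 shares the letters eM. Pairing by number was therefore not shown, and the main genotype fit took the hearts as unpaired. Alternatives were other filters, normalizations, variance models, array weights, blocks, thresholds, 1 probe set per gene, the eI hearts alone and leaving out each heart.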

Additional observations from a re-analysis of the deposited data

Results flagged for a closer look

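In the group of 4 eI hearts, Myl1 in wild-type 2 stood apart from the others: it read 10.99 against 11.93 to 11.99, and its gap to the nearest heart was 0.942 of the group's whole range, above Dixon's 95% limit for 4 samples. Of 14 member probe sets checked it alone had a heart so marked, and chance marks about 1 in 20 groups.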

How the results depend on the processing

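Between genotypes 0 probe sets were called under every alternative run over all 6 hearts, among them the replicate block (0 called, 0 members) and the letters as a block, and in the eI hearts alone; leaving out single hearts gave 0 to 3, with 0 members. The replicate block changed no other call, and could not be fitted for the letters, since number 3 is eM in both genotypes. By letters, 3160 probe sets and 2 members were called; leaving out single hearts gave 1 to 4393 and 0 to 3. With 1 probe set per gene, which tests fewer, 1397 were called, at a threshold of 0.01 there were 607 and 0 members, and at 0.1 there were 5343. Both Myh6 and Mylpf stayed called with no filter, which also brought in the dim Myh6 probe set, and with the stricter filter. They stayed called under quantile normalization, median centring, array weights and no genotype covariate too, and eBayes with trend and robust added Myl7. These calls are on values known when the genes were chosen, so they are no independent evidence. The shift of Myh6 against Myh7 between letters ran from 0.61 to 0.80 without single hearts, and between genotypes from -0.14 to 0.33. An arm left with 1 eM heart takes its spread from the other hearts. Signal over background is unknown here, which limits Myh3 and the dim Myh6 probe set.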
